A study of Mus musculus with 10 samples.

Results

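Chromatin regions bound by p65 (RelA) were compared between conventional T cells (Tconv) stimulated through CD3 and CD28 and unstimulated Tconv. Overlapping entries were merged within each of the 2 lists of p65 peaks, and a merged region counted as shared where it overlapped a region of the other list by at least 1 bp. Stimulated regions without such a counterpart are called gained, and unstimulated regions without one are called lost. The 6480 stimulated entries gave 5734 regions, of which 3866 were gained and 1868 shared. The 3132 unstimulated entries gave 2961 regions, of which 1075 were lost and 1886 shared. Both Tconv lists merged into 6809 regions, against 11923 for all 4 p65 lists of the study.

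The study used ChIP-seq, which sequences the DNA that an antibody pulls down with a chromatin protein, on 10 libraries, 8 of them immunoprecipitated in 4 groups of 2 and the other 2 from input chromatin. T cells were taken from lymph nodes and spleens of C57BL/6 mice, a standard inbred strain. The sources used here do not give the age of the mice. Stimulated Tconv spent 3 h on plate-bound antibody to CD3 with antibody to CD28 in solution and IL-2 at 2 ng/ml. The regulatory T cells (Treg) used below as a second readout were stimulated in the same way with IL-2 at 10 ng/ml. The sources used here do not say how the unstimulated cells were kept, so effects of receptor stimulation, IL-2 and time in culture cannot be told apart. The input was a mixture of chromatin from both cell types, stimulated and unstimulated.

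p65 is the transactivating subunit of the most common NF-kB dimer, which pairs it with p50. In resting T cells IkB proteins hold most of this dimer in the cytoplasm. Signals from the T cell receptor and CD28 run through protein kinase C theta to the IkB kinase, which marks IkB for destruction and frees the dimer to enter the nucleus and bind kappaB sites. Among its targets are the genes of its own inhibitors, and its activity is needed for IL-2 production, survival and proliferation of activated T cells.

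The promoters below show which sequences lay under p65 summits, and they were chosen after their values were seen. Those of Tnfaip3, Nfkb2 and Rel held shared regions, and those of Il2ra and Tnfrsf9 held gained regions. Each runs 5′ to 3′ along the gene's strand and ends before the listed gene start, and capitals mark matches to the kappaB consensus on either strand. Coordinates are those of GRCm38.p6, and the sequences are RefSeq's.
Tnfaip3, chr10:19015411-19015549, minus strand: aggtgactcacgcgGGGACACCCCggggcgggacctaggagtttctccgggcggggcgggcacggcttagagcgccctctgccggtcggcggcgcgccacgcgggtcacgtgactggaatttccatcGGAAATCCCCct
Nfkb2, chr19:46304650-46304736, plus strand: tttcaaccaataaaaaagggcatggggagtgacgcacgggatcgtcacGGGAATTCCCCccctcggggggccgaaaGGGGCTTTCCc
Rel, chr11:23771010-23771129, minus strand: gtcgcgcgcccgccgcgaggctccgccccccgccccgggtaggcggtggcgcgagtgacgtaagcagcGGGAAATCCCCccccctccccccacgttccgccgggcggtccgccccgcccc
Il2ra, chr2:11642581-11642712, plus strand: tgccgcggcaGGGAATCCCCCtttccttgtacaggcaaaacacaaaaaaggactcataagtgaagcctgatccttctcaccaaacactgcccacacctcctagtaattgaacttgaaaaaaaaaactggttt
Tnfrsf9, chr4:150927923-150927998, plus strand: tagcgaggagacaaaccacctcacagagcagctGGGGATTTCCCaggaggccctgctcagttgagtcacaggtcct

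In the Il2ra and Tnfrsf9 sequences, as in those of Nfkb2 and Rel, pairs of overlapping matches run together. In Tnfaip3 a second match lies apart from the first, just before the gene start. The next 4 promoters carry a different element. Those of Pomt1 and Xpo5 held 2 of the strongest regions of the unstimulated list, both shared, and those of Nup107 and Sh3yl1 held lost regions. The lost region at Sh3yl1 is counted below under Acp1, whose listed start lay 16 bp from the summit. Capitals mark the palindromic site of nuclear respiratory factor 1 (NRF1), an activator of mitochondrial and other housekeeping genes.
Pomt1, chr2:32236500-32236619, plus strand: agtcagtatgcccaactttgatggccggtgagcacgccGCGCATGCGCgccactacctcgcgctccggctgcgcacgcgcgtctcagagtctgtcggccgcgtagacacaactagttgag
Xpo5, chr17:46202667-46202786, plus strand: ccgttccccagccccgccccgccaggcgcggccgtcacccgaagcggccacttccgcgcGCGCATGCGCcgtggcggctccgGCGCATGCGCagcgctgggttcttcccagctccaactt
Nup107, chr10:117792734-117792853, minus strand: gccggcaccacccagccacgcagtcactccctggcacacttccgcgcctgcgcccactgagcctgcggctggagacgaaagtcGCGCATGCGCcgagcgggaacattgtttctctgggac
Sh3yl1, chr12:30911536-30911655, plus strand: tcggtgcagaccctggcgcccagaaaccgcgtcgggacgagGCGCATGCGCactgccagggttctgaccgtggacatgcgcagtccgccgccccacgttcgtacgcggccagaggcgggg

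Sequences from distal regions were not used here, since the sequence table holds promoters alone.

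The stimulated list held more and wider regions than the unstimulated list. Gained regions made up 67.4% of the stimulated list (95% Wilson interval 66.2 to 68.6%), and lost regions 36.3% of the unstimulated list (34.6 to 38.1%). With equal list lengths the shares were 63.4% gained and 64.4% lost. Shared regions mostly have a single counterpart, so lists of equal length must have similar shares, which says nothing on a balance of gain and loss. With a common cut-off at a −log10 p of 38.1 the shares were 81.9% and 18.5%. Stimulated regions had a median width of 1217.5 bp and covered 8.12 Mb, and unstimulated regions had a median width of 859 bp and covered 2.76 Mb. The lists were kept to different strengths: the weakest stimulated entry had a −log10 p of 38.1 and the weakest unstimulated entry one of 13.3. The depth of the libraries is unknown. Each group has 1 list made from both of its libraries. The spread between replicates therefore cannot be seen, and the intervals below are for counting error over regions only. Regions are not replicates and neighbouring regions are not independent. A region that is missing from a list did not reach that list's threshold, which is not a measurement of absent binding.

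Strength within a list was read from the fold enrichment of a region's strongest summit over its local background, a value of the authors' peak caller that was used to describe and rank regions within a list. Values from different lists stand side by side below but do not measure a change, since the lists differ in length and threshold. Gained regions had a median of 12.4-fold (quartiles 10.2 and 16.7), and shared regions had a median of 13.9-fold in the stimulated list (11.0 and 18.9). In the unstimulated list, shared regions had a median of 10.5-fold (6.65 and 17.5) and lost regions 7.02-fold (5.72 and 9.05).

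Gained regions were found at every strength, whereas lost regions were nearly absent among the strongest unstimulated regions. Each list was ranked by fold and divided into 10 equal groups. In the strongest group of the stimulated list 59.8% of regions were gained (343 of 574, 55.7 to 63.7%), and in the weakest group 79.8% were (76.3 to 82.8%). In the strongest group of the unstimulated list 1.01% of regions were lost (3 of 297, 0.344 to 2.93%). That share was 7.43, 23 and 37.2% in the next 3 groups and between 45.9 and 52.0% in the others. The assignment to classes did not hang on narrow margins: the smallest overlap of a shared pair was 202 bp, and 2 gained regions lay within 100 bp of an unstimulated region.

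**Figure D1:**
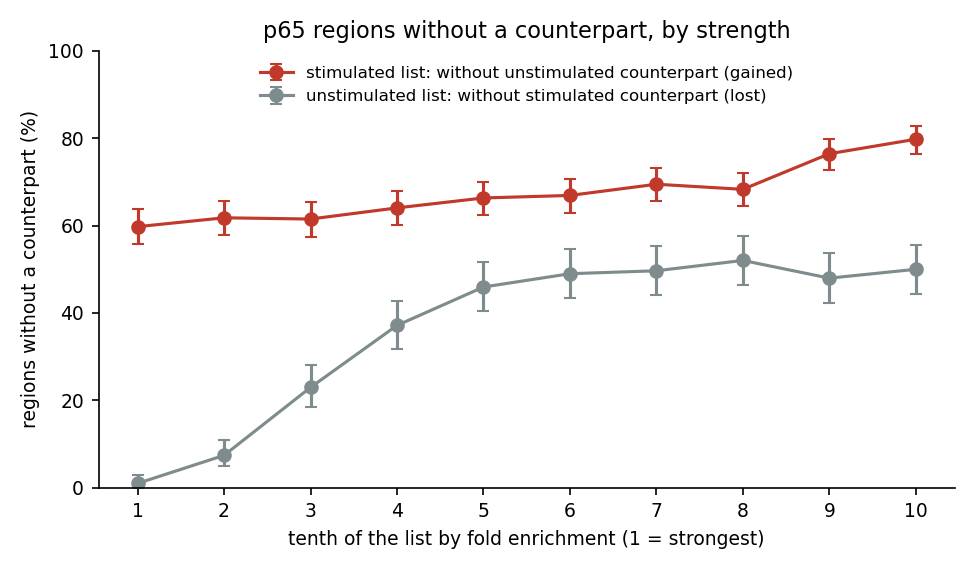
Share of regions without a counterpart in the other Tconv list (y axis, %) for 10 equal groups of each list ranked by fold enrichment (x axis, 1 is the strongest). Points are shares and bars 95% Wilson intervals over regions; the stimulated list runs from 59.8 to 79.8% and the unstimulated list starts at 1.01%.

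Gained regions lay mostly away from gene ends, and shared and lost regions mostly at them. The strongest summit lay within 1 kb of an end of a protein-coding gene in 23.3% of gained regions (902 of 3866, 22.0 to 24.7%). The share was 71.8% of shared regions in the stimulated list (69.8 to 73.8%) and 72.0% of lost regions (774 of 1075, 69.2 to 74.6%). Gained regions lay inside genes, away from either end, in 44.0% of cases, against 17.9% of shared and 18.6% of lost regions. A further 24.5% of gained regions lay outside genes within 50 kb, and 8.15% lay farther from any gene, against 7.92% and 2.30% of shared regions.

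**Figure D2:**
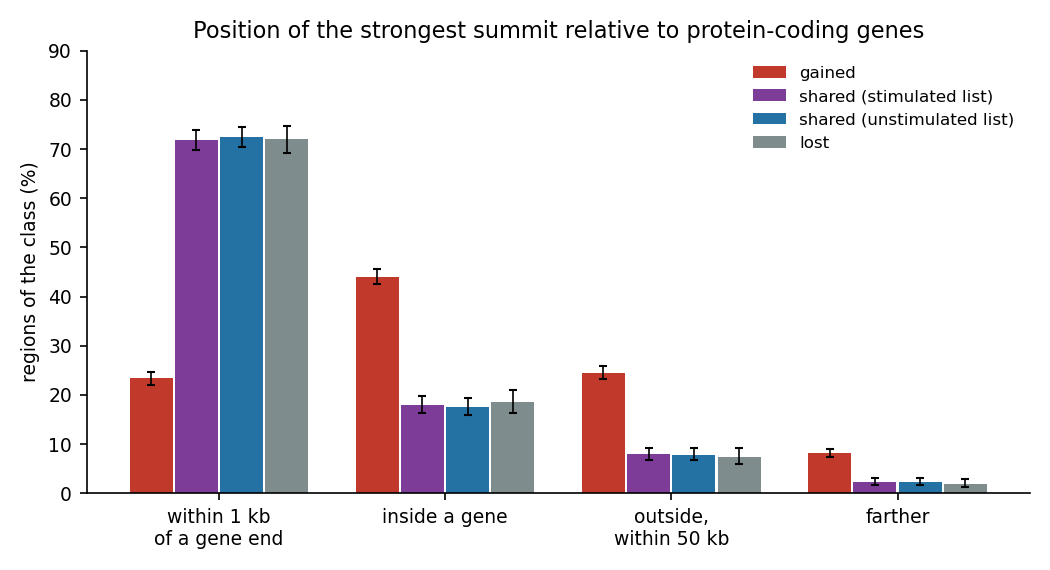
Position of the strongest summit relative to protein-coding genes (x axis) as a share of the regions of each class (y axis, %). Bars are shares, and black lines 95% Wilson intervals over regions; at gene ends the gained class stands at 23.3% and the other classes between 71.8 and 72.4%.

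Where the nearest gene had a listed start, nearly all regions at gene ends lay within 1 kb of a listed start. That start could be of the nearest gene or of another gene. This held for 90.7% of gained regions (671 of 740), 96.6% of shared regions in the stimulated list and 96.3% of lost regions (594 of 617). Among regions within 1 kb of a listed start, 69.1% of gained, 75.5% of shared and 66.2% of lost summits lay upstream of it. The median position was 52.5 bp upstream for gained, 52 bp upstream for shared and 26 bp upstream for lost regions. Within 100 bp of the start lay 47.9% of these gained summits (44.5 to 51.3%), 61.0% of the shared summits in the stimulated list (58.2 to 63.7%) and 64.5% of the lost summits (60.8 to 68.0%). Gained summits at promoters were thus spread more widely around the start.

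**Figure D3:**
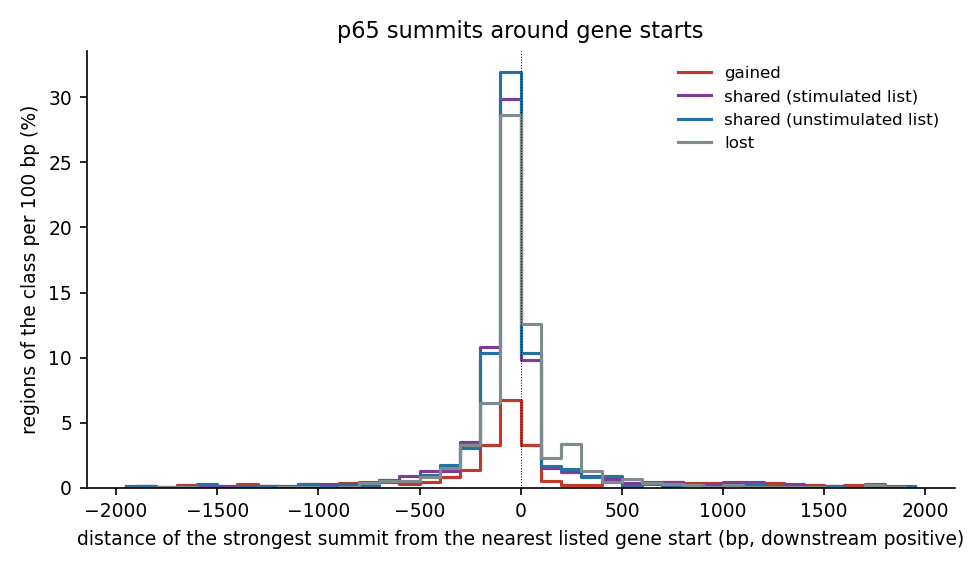
Distance of the strongest summit from the nearest listed gene start (x axis, bp, downstream positive) as a share of all regions of the class per 100 bp (y axis, %). Lines are the 4 classes; each has its highest step just upstream of the start, and the line of the gained class is the lowest there, since 21.0% of gained regions lay within 1 kb of a start against 63.9% of lost regions.

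Each region was given to the protein-coding gene nearest to its strongest summit, up to 50 kb away. Of 21887 genes, 2201 (10.1%) had a gained region, 1792 (8.19%) a shared region and 1041 (4.76%) a lost region. These shares are the background for the gene lists below. The lists were chosen with earlier results of these data known, so a share above the background is not independent evidence. With a common cut-off at a −log10 p of 38.1 for both lists, 1043 genes had a shared and 233 a lost region. Nearest genes need not be the genes that a region regulates, and long genes collect more regions. The lists are counted as they are, with no test of whether they stand apart.

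All 5 genes of the NF-kB subunits had a shared region, and none had a lost one. The region at Nfkb2, which encodes the precursor p100, was 56.4-fold in the stimulated and 24.6-fold in the unstimulated list. The region at Nfkb1 (p105 and p50) was 52.0-fold and 14.8-fold, that at Rel 44.7-fold and 24.7-fold, and that at Relb 41.4-fold and 20.3-fold. Rela, the gene of p65 itself, had 2 shared regions. The one near its start was 19.2-fold in the stimulated and 13.3-fold in the unstimulated list, and the one near its other end 16.6-fold and 19.6-fold. Gained regions lay at Nfkb1 and Rel. Nfkb1 had 5, none of them at a gene end, of which 3 lay 21.5 to 30.2 kb outside the gene. Rel had one of 37.2-fold inside the gene at chr11:23753433-23754859, 16.5 kb downstream of its listed start. The 5 subunit genes thus all had a region in both states, and 2 of them had further ones in the stimulated list alone.

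Of 25 genes of IkB proteins and of feedback on NF-kB, 15 had a shared, 14 a gained and 2 a lost region, and 28 of their 45 stimulated regions were gained. The 3 strongest regions of the whole stimulated list were at such genes. Nfkbia encodes IkB alpha, the inhibitor that p65 restores after its own activation. Its region chr12:55486714-55493659 was 82.3-fold in the stimulated list, and its counterpart was 33.2-fold. Tnfaip3 encodes A20, a ubiquitin-editing enzyme that shuts off the pathway. The Tnfaip3 promoter region chr10:19013050-19016181, whose sequence is printed above, was 70.2-fold and its counterpart 35.1-fold. Nfkbid encodes the nuclear IkB protein IkB-NS, and its region chr7:30418664-30424145 was 69.8-fold with a counterpart of 6.00-fold. The unstimulated list therefore held the Nfkbia and Tnfaip3 regions among its strong ones, at ranks 119 and 103, and the Nfkbid region at rank 2307 of 2961.

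Gained regions flanked several of the same feedback genes. Tnfaip3 had 5, from 10.8-fold to 20.4-fold, with 2 inside the gene and 3 between 13.3 and 35.9 kb beyond it. Nfkbia had 2, the stronger of 32.1-fold at 24.5 kb from the gene. Otulin, which trims linear ubiquitin chains, had 3, the strongest of 27.6-fold, and Nfkbiz, another nuclear IkB gene, had one of 34.9-fold. Zc3h12a, which encodes the RNA-degrading enzyme Regnase-1, had 2 shared regions, the stronger of 42.0-fold in the stimulated list. The lost regions were at N4bp1 (10.3-fold) and Zc3h12d (5.72-fold). No region was given to Tnip2, Tnip3, Tnfaip2, Ikbke, Ikbkg or Chuk, so of the IkB kinase genes only Ikbkb had one, with 2 gained regions up to 11.8-fold.

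Genes of the T cell receptor pathway had gained regions more than shared ones. Of 27 genes, 22 had a gained, 8 a shared and none a lost region, and with the common cut-off 23 had a gained and 2 a shared one. In all, 90 of their 98 stimulated regions (91.8%) were gained, against 66.1% of the regions given to all genes. Only 10% of these gained regions lay at a gene end. Zap70, the kinase recruited to the receptor's zeta chain, had 4 gained regions, the strongest of 48.2-fold at chr1:36768440-36769454 inside the gene. Cd247, which encodes the zeta chain, had 5 up to 32.5-fold, and Lcp2, the adaptor SLP-76, had 5 up to 32.6-fold. Ptprc, the phosphatase CD45, had 11 gained regions, 8 of them inside the gene, and the strongest was 45.9-fold. Prkcq, the protein kinase C theta that couples the receptor to NF-kB, also had 11, up to 35.1-fold. Downstream of it, Malt1 had 2 gained regions up to 14.1-fold, and Bcl10 had a single shared region of 12.7-fold.

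Inhibitors of the pathway on the same list also had regions. Cblb, a ubiquitin ligase that limits receptor signalling, had 11 gained regions and one shared region. Ptpn22, a phosphatase acting on Lck and Zap70, had 4 gained regions up to 36.3-fold. Dgka and Dgkz, whose products remove diacylglycerol, each had 2, up to 35.4-fold and 27.8-fold. Cd5, an inhibitory co-receptor, had 4 gained regions and a shared one of 37.6-fold with a counterpart of 5.55-fold. Cbl, a relative of Cblb, had a shared region alone, of 9.92-fold, and Ubash3a, which encodes a phosphatase family protein, had one gained region of 8.25-fold. No region was given to Cd3e or Cd3g. Cd3d, which lies beside them, had a shared region of 35.9-fold.

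Of 26 co-stimulatory and TNF receptor genes, 18 had a gained, 2 a shared and none a lost region. The shared count (7.69%) was close to the 8.19% of all genes, and it was 0 with the common cut-off. Of their 46 stimulated regions 44 were gained. Cd2, an adhesion and co-stimulatory receptor, had 5, the strongest of 50.5-fold at chr3:101279373-101281527. Icos had one of 46.0-fold inside the gene at chr1:60974011-60975307 and one of 23.2-fold 35.1 kb outside it. Cd28, the receptor engaged by the stimulus, had 7, the weakest of 8.51-fold and the strongest of 24.0-fold. One of them lay 0.091 kb from its gene end, and the strongest lay 3.78 kb outside the gene. Ctla4, its inhibitory relative, had a single gained region of 11.7-fold, with the summit 93 bp upstream of the listed start. Tnfrsf9 (4-1BB) had 3 gained regions, among them the promoter printed above with 13.6-fold, and a shared region 18.7 kb outside the gene. Tnfrsf18 (GITR) had 2 up to 22.1-fold, Tnfrsf1b 4 up to 23-fold and Cd27 2 up to 32.1-fold. No region was given to Tnfrsf4, Tnfrsf1a, Tnfrsf8, Tnfrsf25, Cd40, Cd80, Cd86 or Cd274, several of which act mainly on antigen-presenting cells.

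Of 33 genes of early activation factors, 26 had a gained, 13 a shared and 1 a lost region, and 11 had a gained and a shared one. With the common cut-off 26 had a gained, 4 a shared and none a lost region. Nr4a1 (Nur77), an orphan receptor induced by receptor signalling, had 2 shared regions. The one over its promoter, at chr15:101266042-101277504, was 61.4-fold with a counterpart of 6.72-fold. It also had 4 gained regions up to 31.5-fold. The shared region at Fos, a subunit of AP-1, lay 26.7 kb upstream of the listed start and was 51.9-fold with a counterpart of 5.03-fold. That at Cd69, an early surface marker of activation, was 48.6-fold with a counterpart of 6.14-fold. Junb had a shared region of 37.1-fold and no gained one. Gadd45b had 2 gained regions, the stronger of 55.6-fold at chr10:80938948-80941629, 7.76 kb outside the gene. Egr2, a zinc finger factor, had 3 gained regions. The strongest, of 48.7-fold, covered chr10:67534741-67540283 with its summit 311 bp upstream of the listed start. Nfatc1, a calcium-controlled partner of AP-1, had 4 up to 42.0-fold. Batf, Irf8, Atf3, Dusp6 and Ier2 had gained regions alone, and Jun, Fosl1, Batf3, Ier3 and Nfatc3 had no region.

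Of 25 effector cytokine genes, 10 had a gained, 3 a shared and none a lost region, and with the common cut-off 12 had a gained and none a shared one. Of the 10 TNF family genes among them 8 had a region, and of the 11 interleukin genes Il2 and Il21 had one. Tnf had a single gained region of 50.9-fold at chr17:35197991-35202655, with the summit 137 bp upstream of its listed start. Its neighbours Lta and Ltb, which encode the lymphotoxins, had shared regions, the strongest of 16.5-fold and 23.9-fold in the stimulated list. Fasl, the death ligand, had 8 gained regions from 7.55-fold to 35.2-fold. One of them lay 36 bp downstream of the listed start and the strongest 26.8 kb downstream. Tnfsf8 and Cd40lg had 4 each, up to 36.0-fold and 21.8-fold. Il2 had 2 gained regions, of 9.95-fold and 10.0-fold, at 26.5 and 31.2 kb upstream of its listed start, and none at its promoter. Ifng had one of 28.0-fold at 21.8 kb upstream. Il21 had one of 8.57-fold. No region was given to Il3, Il4, Il5, Il6, Il10, Il13, Il17a, Il17f, Il22, Csf1 or Csf2. With regions given to genes within 10 kb in place of 50 kb, 6 of the 25 cytokine genes had a gained region, Il2 and Ifng not among them.

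Receptors for cytokines and their signalling partners followed, with 19 of 33 genes having a gained, 9 a shared and 1 a lost region. With the common cut-off 25 had a gained and 4 a shared one. Il2ra encodes the alpha chain that makes the IL-2 receptor highly sensitive. It had 6 gained regions and no unstimulated region. The strongest was 34.8-fold at chr2:11651081-11654042, 8.96 kb downstream of the listed start. The promoter region chr2:11642035-11643235, whose sequence is printed above, was 18.7-fold. The other 4 ranged from 10.9-fold to 19.4-fold. Il21r had 4 gained regions up to 43.2-fold, Il4ra 2 up to 36.2-fold, Il6ra 7 up to 29.9-fold and Il7r 3 up to 19.0-fold. Stat5b, which acts below the IL-2 receptor, had 5 gained regions up to 40.2-fold and a lost one of 12.0-fold, all inside the gene. Cish, an inhibitor of cytokine signalling, had 3 up to 40.7-fold. Jak2 had a shared region of 46.6-fold with a counterpart of 9.40-fold.

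Chemokine genes had no region, and receptors of homing were covered. Of the 21 chemokine and chemokine receptor genes, 7 had a gained, 3 a shared and 1 a lost region (7 gained and 1 shared with the common cut-off), and none of the 7 chemokine genes on the list was the nearest gene of any. The promoter of Cxcl10 did hold a gained summit, of 14.0-fold, which was counted under Art3, the longer gene around it. Cxcr5, which guides T cells to B cell follicles, had 4 gained regions. One of 63.8-fold at chr9:44515056-44516553 was the second strongest gained region of all. Ccr7, which guides naive cells into lymph nodes, had 6 gained regions from 12.1-fold to 25.4-fold and a shared one of 26.3-fold. S1pr1, needed to leave lymph nodes, had 3 gained regions and a shared one. Cxcr4 had 3 gained and 3 shared regions, and its promoter region had 10.9-fold in the stimulated and 20.8-fold in the unstimulated list.

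The list called naive T cell genes had the highest share of gained genes: 21 of 22 had a gained region, 10 a shared one and 2 a lost one. Not all its members are particular to naive cells, and Gata3 is also counted among the helper lineage factors. With the common cut-off 21 had a gained, 2 a shared and none a lost one. Themis alone had none. Bach2, a repressor that keeps T cells naive, had 16 gained and 4 shared regions. Its strongest gained regions were 38.1-fold and 30.9-fold, and both lay inside the gene. Foxp1, which enforces quiescence, also had 16 gained regions, besides 1 shared and 1 lost region. Lef1 had 7 gained regions up to 41.2-fold, Ets1 8 up to 27.3-fold, Satb1 6 up to 21.2-fold and Ikzf1 6 up to 16.4-fold. Foxo1 had 2 up to 41.3-fold and Klf2 3 up to 37.9-fold. Tcf7 had a shared region of 36.6-fold with a counterpart of 10.1-fold and 4 gained ones. Only 4.17% of the 96 gained regions of these genes lay at a gene end. Many of these genes are long, and the part of gene length in the count was not tested.

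Gained shares were 40% for survival genes, 31.6% for helper lineage factors, 25% for antigen processing and 36.4% for metabolism, beside 10.1% of all genes. Of 20 survival genes 8 had a gained and 3 a shared region. Cflar, the inhibitor of death receptor signalling, had 3 gained regions up to 28.9-fold and Bcl2 had 4 up to 15.5-fold. Birc3, the ubiquitin ligase cIAP2, had a shared region of 28.5-fold. Of 19 helper lineage factors 6 had a gained, 1 a shared and 1 a lost region. Prdm1 (Blimp-1) had 4 gained regions up to 23.9-fold, and Gata3 had 2 up to 20.5-fold. No region was given to Tbx21, Eomes or Rora, nor to the Treg-associated genes Foxp3, Ikzf2 and Ikzf4. Of 16 genes of MHC class I and antigen processing 4 had a gained region, and H2-D1 and H2-K1 had shared regions of 27.8-fold and 14.4-fold. With the common cut-off 6 had a gained and none a shared region. The promoter of B2m, the light chain of class I, held a shared summit of 16.9-fold that was counted under Patl2, the gene around it. Of 22 genes of growth and metabolism 8 had a gained, 4 a shared and 3 a lost region. Slc3a2, the heavy chain of an amino acid transporter, had the strongest of the gained ones at 47.5-fold.

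Lost regions lay at 4.76% of all genes. Their shares were 16.7% of ribosomal protein genes (5 of 30), 13.6% of growth and metabolism genes (3 of 22) and 12% of housekeeping genes (3 of 25). No gene on the lists of T cell receptor, co-stimulation, effector cytokine or survival genes had one. These lists hold 20 to 27 genes each, few for a share of 4.76%. With the common cut-off lost regions lay at 4 of the 30, 0 of the 22 and 2 of the 25 genes. With equal list lengths they lay at 8, 5 and 6 of these, beside 1825 of all 21887 genes. Equal lengths also gave lost regions to 5 of 27 T cell receptor, 2 of 25 effector cytokine and 1 of 26 co-stimulation genes, and to no survival gene. Of 25 genes of mitochondrial quality and core housekeeping, 7 had a gained, 8 a shared and 3 a lost region. Of 30 cytosolic ribosomal protein genes, 2 (6.67%) had a gained, 5 (16.7%) a shared and 5 (16.7%) a lost region. The 6.67% of ribosomal genes with a gained region stood beside 10.1% of all genes, and under 3 alternatives it lay on the other side: 13.3% beside 12.6% with a common cut-off at a −log10 p of 38.1, 6.67% beside 4.99% with equal list lengths, and 40% beside 24.0% with every gene within 50 kb counted. Their lost regions were at Rps9 (13.8-fold), Rpl19 (13.7-fold), Rpl14 (10.6-fold), Rpl7 (9.48-fold) and Rps4x (7.02-fold).

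Markers of other cell types were checked in the same way. None of 10 B cell genes had a region in either Tconv list, and 79.3% of all protein-coding genes had none either. Of 10 myeloid genes Itgam had one, a gained region of 38.7-fold 0.68 kb from its gene end. Of 8 genes of CD8 T cells and natural killer cells, Cd8b1 (13.2-fold) and Klrb1c (10.6-fold) had one, both gained. Cd8a, Gzmb and Prf1 had none. Gained regions lay at 10.1% of all genes, and lists of 8 or 10 genes are too short to stand apart from that. With every gene within 50 kb counted, 2 B cell, 3 myeloid and 2 CD8 or natural killer genes had a gained region, beside 24.0% of all genes. A p65 region does not measure expression, so these counts describe binding alone, and the part of other cells in the lists was not tested.

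**Figure D4:**
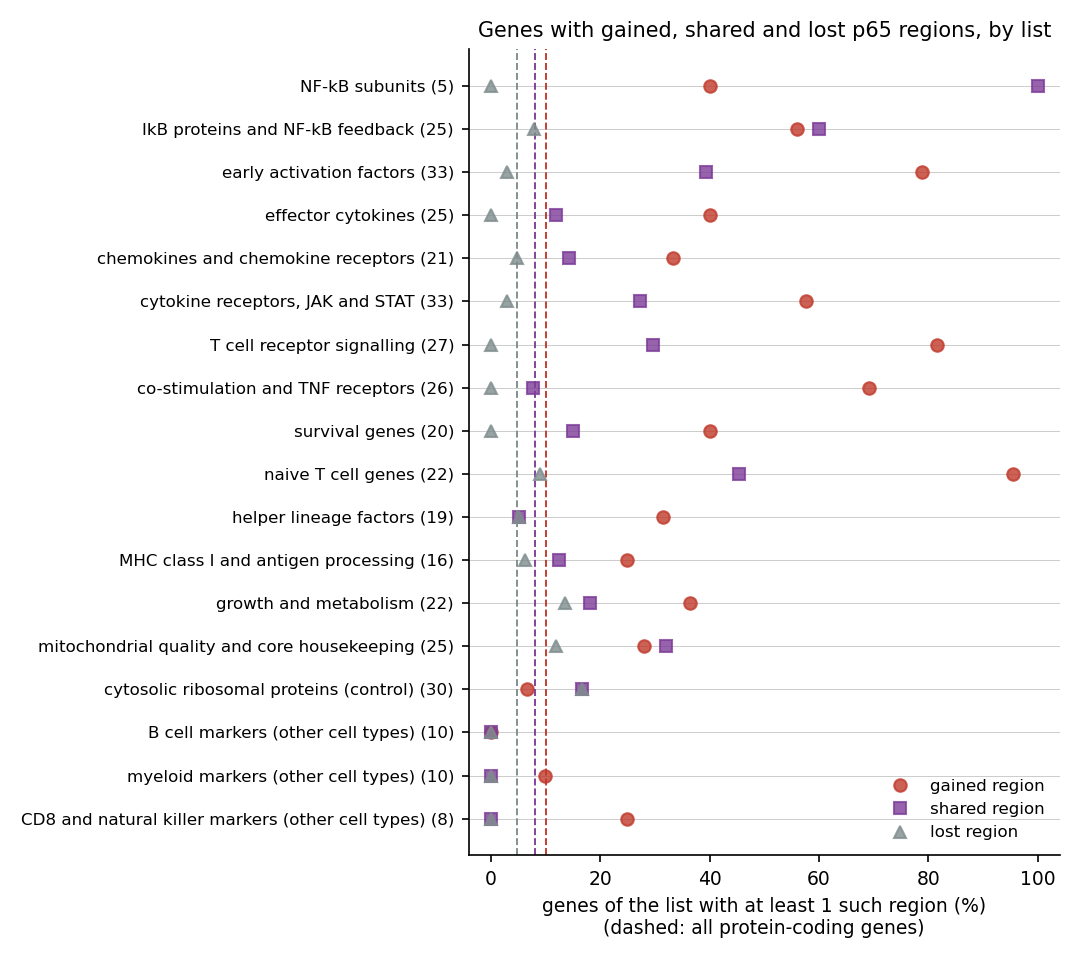
Share of the genes of each list that had at least 1 gained, shared or lost p65 region (x axis, %), with the number of genes of each list in brackets on the y axis. Dashed lines give the shares over all protein-coding genes, 10.1% gained, 8.19% shared and 4.76% lost; the subunits of NF-kB stand at 100% shared and the naive T cell genes at 95.5% gained.

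Gained regions clustered at some genes. There were 669 genes with 2 or more gained regions and 80 (0.366% of all genes) with 5 or more. These 80 genes took 548 regions, 14.2% of the gained class. Their median length was 112 kb, against 34.2 kb for all genes with a gained region, and 31 of the 80 also had a shared region. Foxp1 and Bach2 led with 16 each, followed by Arhgef3 and Akap13 with 13, Inpp4b with 12, and Ptprc, Prkcq, Pip4k2a and Cblb with 11. Ubac2 had 10 gained and 2 shared regions. Arhgef3 and Akap13 encode exchange factors for small GTPases, and Inpp4b and Pip4k2a encode enzymes of phosphoinositide metabolism. Arhgef3 had its strongest gained region at 47.2-fold and none in the unstimulated list. The small gene Fasl, of 7.81 kb, had 6 of its 8 regions in its flanks.

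None of the 10 strongest gained regions had its summit within 1 kb of a listed gene start. The first was a region of 66.3-fold at chr4:141424964-141426531, 0.571 kb from an end of Hspb7, a small heat shock protein gene, and 5.10 kb from the nearest listed start. After the region at Cxcr5 came one of 62.4-fold inside Lrrfip1 and one of 61.4-fold 9.73 kb outside Spry1, a gene of a feedback inhibitor of receptor kinases. Regions near Gadd45b, Ramp3, Sh2b3 and Thy1 followed, at 51.4-fold to 55.6-fold. Sh2b3 encodes the adaptor LNK, and its summit lay 0.238 kb from a gene end and 1.78 kb upstream of the listed start. The summits at Cxcr5 and Thy1 lay 74.6 and 52.8 kb upstream of the nearest listed start, which was another gene's. Promoters without a listed start could thus be missed. Of these 10 regions 2 lay farther than 50 kb from any protein-coding gene, at chr15:62168702-62170639 (53.1-fold) and chr3:130809212-130810769 (52.4-fold). Every one of the 10 overlapped a region of the stimulated Treg list, and those at Cxcr5 and Ramp3 also overlapped the unstimulated Treg list.

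Gained regions were seldom direct neighbours of an unstimulated region. An unstimulated region lay within 1 kb of 1.53% of gained regions, within 10 kb of 10.7% and within 100 kb of 48.9%. Of the 2201 genes with a gained region, 1742 had gained regions alone and 117 had gained and lost ones without a shared one. Shared regions lay at 342 of the 2201, beside 1792 (8.19%) of all 21887 genes, so such genes did not lack unstimulated regions.

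Lost regions were weaker and narrower than shared ones within the unstimulated list, with median widths of 732 and 925.5 bp. The strongest lost region, of 41.1-fold at chr16:35982662-35984197, lay 0.028 kb from an end of Kpna1, which encodes a nuclear import receptor, and it overlapped no region of either Treg list. The second, of 37.9-fold, lay inside Snx29. Those that followed were at Lrba (23.3-fold), Tbc1d20 and Pink1 (21.8-fold each), Cox17 (21.7-fold), Acp1 (21.6-fold) and Usp37 (19.8-fold). The region at Acp1 is the one in the Sh3yl1 promoter printed above, and the summit given to Usp37 lay 72 bp upstream of the listed start of Cnot9. Pink1 encodes a kinase that marks damaged mitochondria, and Cox17 a copper chaperone of cytochrome oxidase. The summit at Pink1 lay 4 bp downstream of its listed start and the region was also in the unstimulated Treg list but not in the stimulated one. Of the 1041 genes with a lost region, 169 (16.2%) also had a stimulated region, close to the 16.5% of all genes (3610 of 21887). The other 872 had lost regions alone. Stimulated regions lay within 10 kb of 9.30% of lost regions.

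The shared regions had summits at nearly the same bases in both lists. Over 1886 pairs the median distance between the strongest summits was 23 bp, and 85.0% of pairs were within 100 bp. The stimulated region was the wider one in 84.0% of pairs, with a median width ratio of 1.39. The 10 strongest shared regions of the stimulated list included those at Nfkbia, Tnfaip3, Nfkbid, Nr4a1 and 2 at Hivep2, a kappaB-binding zinc finger gene (61.6-fold each). In the unstimulated list they were at Sugp2 (95.6-fold), Phf12 (88.3-fold), Rab3gap2 (75.3-fold), Ehmt1 (73.7-fold), Rab35 (71.8-fold), Nadk (69.6-fold), Sprtn (69.4-fold), Hp1bp3 and Upf1 (68.3-fold each) and Tiam1 (67.6-fold). Sugp2 was the one gene in both sets of 10, with 58.2-fold in the stimulated list. For 9 of these 10 the unstimulated summit lay within 130 bp upstream of a listed start, Tiam1 being the exception. For the regions given to Sugp2 and Sprtn that start was of another gene, Armc6 and Exoc8. The nearest genes include some for RNA processing and decay (Sugp2, Upf1), histone methylation (Ehmt1) and vesicle traffic (Rab35), and none encodes an NF-kB protein.

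Motif matches were counted in the 300-base promoters (250 bases before and 50 after a listed start) that held the strongest summit of a region. There were 579 such promoters for gained, 1136 for shared (stimulated list) and 574 for lost regions, and 21263 listed promoters in all. Both strands were searched. The kappaB consensus was present in 11.4% of promoters with a gained region (66 of 579, 9.06 to 14.2%), 8.27% with a shared region (94 of 1136, 6.81 to 10.0%), 3.66% with a lost region (21 of 574, 2.41 to 5.53%) and 4.81% of all promoters. Gained and shared promoters thus held it more often than all promoters beyond counting error, and lost promoters did not. The genes of the lists above with a match in a gained promoter were Il2ra, Fos, Cxcl10, Tnfrsf9, Bbc3, Bcl3 and Tnip1. Those with a match in a shared promoter of the stimulated list included Tnfaip3, Nr4a1, Nfkb2, Rel, H2-D1, Traf3, Ifngr2, Ltb, Nfkbie and B2m.

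NRF1 sites had another pattern. The palindrome shown in capitals above was present in 1.21% of promoters with a gained region (7 of 579, 0.587 to 2.47%), 11.6% with a shared region in the stimulated list (132 of 1136, 9.88 to 13.6%), 6.45% with a lost region (37 of 574, 4.71 to 8.76%), 1.33% of all promoters and 0.546% of the 18863 promoters with no summit in either list. The matches lay close under the summits: in shared regions of the unstimulated list the nearest one was a median of 14.5 bp from the summit and within 50 bp in 90.3% of promoters, and in lost regions it was 16.5 bp away. For the kappaB consensus the median distance was 48 bp in gained and 43.5 bp in shared regions of the stimulated list.

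Within the shared regions of the unstimulated list, the shares of both motifs differed with strength, in opposite directions. The 1172 promoters were ranked by fold and divided into 3 equal groups. From the strongest through the middle to the weakest group, NRF1 matches went from 19.0% (15.4 to 23.2%) through 12.3% to 3.07% (1.76 to 5.29%), and kappaB matches from 3.59% (2.15 to 5.93%) through 8.18% to 11.5% (8.71 to 15.1%). The median GC content of the 3 groups was 65.8, 65.7 and 65.7%. The 1136 promoters of shared regions in the stimulated list, ranked by that list, are a set of their own and had kappaB matches in 11.1, 7.92 and 5.80% and NRF1 matches in 14.0, 10.3 and 10.6%. The strongest unstimulated promoters thus had few kappaB matches and many NRF1 matches. A match describes these letters in this window and does not show which protein was bound.

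**Figure D5:**
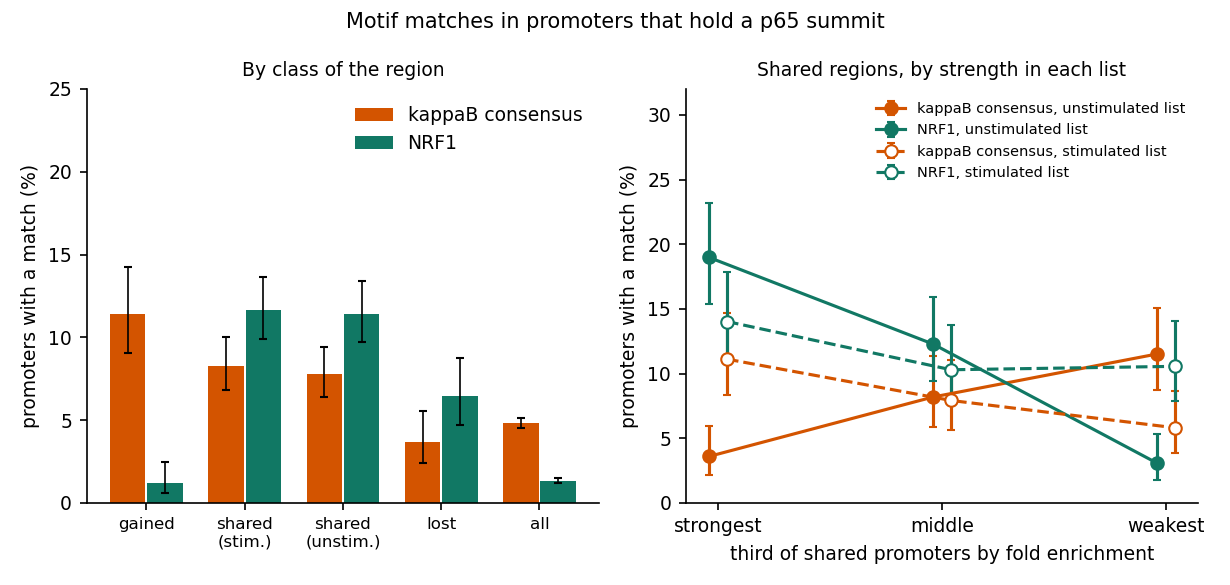
Left, share of promoters with a kappaB consensus or NRF1 match (y axis, %) by class of the region whose summit they hold, beside all promoters. Right, the same for promoters of shared regions in 3 equal groups by fold enrichment, filled points for the 1172 promoters of the unstimulated and open points for the 1136 of the stimulated list, each ranked by its own list; bars are 95% Wilson intervals, and the NRF1 share in the unstimulated ranking runs from 19.0 to 3.07%.

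Other motifs separated the gained promoters in part. The ETS site CCGGAAGT was in 14.7% of gained (12.0 to 17.8%), 9.42% of shared (stimulated list), 8.54% of lost and 5.15% of all promoters. The NFAT-like core GGAAAA was in 31.3% of gained (27.6 to 35.1%), 20.4% of shared, 17.6% of lost and 22.3% of all promoters. The RUNX core TGTGGT was in 16.9, 9.24, 11.1 and 15% of gained, shared, lost and all promoters, and the AP-1 site TGANTCA in 5.70, 3.52, 1.92 and 6.99% of the same 4 sets in that order. The cyclic AMP response element TGACGTCA was in 5.18, 4.31, 2.09 and 2.23%, and the GC box GGGCGG in 65.5, 78.3, 78.0 and 46.2%. Base composition differed between the sets: the median GC content was 61.3% in gained, 65.7% in shared, 64.7% in lost and 56.3% in all promoters, and its part in these shares was not tested.

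The Treg lists, which had no part in defining the classes, held most gained regions after stimulation. Of the gained regions 95.8% (3705 of 3866, 95.2 to 96.4%) overlapped a region of the stimulated Treg list, 9.93% (9.03 to 10.9%) one of the unstimulated Treg list and 4.04% neither. Shared regions of the stimulated list overlapped the stimulated Treg list in 95.9% and the unstimulated Treg list in 91.7%. The stimulated Treg list is the longest, with 11077 regions covering 12.6 Mb. Regions in neither Treg list included one of the 2 gained regions of Il2, of 9.95-fold at chr3:37151650-37153429, and the gained region of Il21. One of the 8 gained regions of Fasl, one of the 3 of Tnfrsf9 and one of the 16 of Foxp1 were also in neither.

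The 384 gained regions with an unstimulated Treg counterpart lay at a gene end in 46.9% of cases, against 20.7% of the gained regions without one. Their median fold was 14.2 against 12.2. Among them were the strongest Il2ra region, the strongest Cd28 region and both strongest regions of Cxcr5. For these genes, p65 was thus listed in unstimulated Treg at places where the unstimulated Tconv list had no region.

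Lost regions were present in the unstimulated Treg list in 76.5% of cases (822 of 1075, 73.8 to 78.9%) and in the stimulated Treg list in 39.6% (426 of 1075, 36.7 to 42.6%). In that order, the shares were 86.1 and 75.3% of all unstimulated regions, and 91.5 and 95.6% of the shared ones. The share of lost regions in the stimulated Treg list depended on list strength. It was 17.7% with the common cut-off and 1.68% with equal list lengths. Both Treg lists held 32.2% of lost regions and neither held 16.1%. Lost regions that had a stimulated Treg counterpart lay at a gene end in 80.5% of cases, against 66.4% of the others. The regions at Tbc1d20, Acp1, Usp37, Dag1 and Rfx2 were in both Treg lists, so that these regions of the unstimulated Tconv list were missing from the stimulated Tconv list and present in the longer stimulated Treg list.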

How the data were processed

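p65 ChIP-seq was analysed in Tconv, stimulated or not, with the Treg lists as a second readout. The submitters' processing notes name MACS2 2.1.1.20160309, BWA 0.7.15-r1140, Trim Galore 0.4.1 and mm10. Peaks came as 1 list per group, made from 2 libraries; the sources used here do not say how the input entered. The deposited fold enrichment (a ratio to local background), −log10 p and score (10 times −log10 p) of each summit are the authors' values. The depth of each library is unknown. A longer list or a lower threshold can come from depth, library quality or binding, which cannot be told apart.

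Overlapping entries were merged (Python 3.11.15, pandas 2.3.3, numpy 2.4.6). The strongest summit is that with the highest fold. Wilson intervals came from SciPy 1.17.1. Genes, 17492 of 21887 with at least one of 21263 listed starts, and promoter sequences came from RefSeq's GRCm38.p6 tables, which share the coordinates of mm10. All 376 genes of the 18 lists matched a gene and 296 had a listed start. Genes were named as nearest to the 10 strongest regions of a class, as the 10 with the most gained regions, or as list members; examples of motif matches were chosen after their values were seen. The members and the gene lists were chosen with earlier results of these data known. No p-value was computed, since no group has replicate lists. The overlap step was tested on randomly subsampled and shifted copies of the stimulated Tconv regions. Gene assignment was checked against a direct search on a random subset of these regions. Motif counts and start distances were not tested in this way.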

Additional observations from a re-analysis of the deposited data

How the results depend on the processing

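The classes depended on threshold and list length. The gained share was 67.4% and became 74.7% with a reciprocal overlap of 50%, 69.4% with summits within 500 bp, 63.4% with equal list lengths (3132 entries), 81.9% with a common cut-off at a −log10 p of 38.1, 76.2% with the strongest 50% of each list and 66.0% without merging. The lost share was 36.3% and became 51.0, 40.7, 64.4, 18.5 and 53.9% under the first 5 of these. The share at gene ends stayed lower for gained than for shared and lost regions in all the alternatives run. Gained regions had 26.5% (reciprocal overlap), 15.9% (equal lengths), 30.2% (common cut-off), 19.2% (500 bp window) and 29.0% (2 kb window), and shared regions 76.3, 67.1, 79.5, 65.2 and 77.8%. Lost regions had 68.1% (reciprocal overlap), 76.4% (common cut-off), 66.2% (500 bp) and 77.0% (2 kb). With reciprocal overlap, equal lengths and the common cut-off, 86.1, 77.5 and 89.6% of gained and 34.0, 1.68 and 17.7% of lost regions were in the stimulated Treg list. In the unstimulated Treg list were 3.92% of gained regions (common cut-off) and 71.0% (reciprocal overlap) and 79.3% (common cut-off) of lost regions.

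Genes with a gained, shared or lost region numbered 5248, 4836 and 3226 when each gene within 50 kb was counted, and 1092, 994 and 1825 with equal lengths. The common cut-off left 1043 genes with a shared and 233 with a lost region. A stricter, palindromic kappaB form was in 0.518% of gained, 0.0880% of shared and 0% of lost promoters. A looser form, GGG and CC with any 5 bases between, which contains both other forms, was in 73.4, 74.5 and 73.0%, against 57.0% of all promoters. Of 300 gene list and single gene counts under alternatives, 223 stayed within 1.5 times the main count. Of the other 77, 35 came from counting each gene within 50 kb, 20 from equal lengths, 17 from the common cut-off, 4 from 10 kb and 1 from 200 kb. No paired analysis was possible because each group has 1 list, whose columns carry no replicate numbers, and for the same reason no replicate could be left out. The cause was not tested for any of these shifts.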

Other observations

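Irf4, Id3 and Prdm1, regulators of T cell differentiation, had both gained and lost regions. At Irf4, which drives effector differentiation, gained regions of 36.3-fold and 29.2-fold lay inside the gene and 1.27 kb outside it, while a lost region of 7.61-fold lay 0.184 kb from a gene end and 17.9 kb downstream of the listed start. At Id3, an inhibitor of E proteins, gained regions of 24.2-fold and 8.02-fold lay 43.2 and 36.7 kb upstream of the listed start, and a lost region of 5.91-fold lay 4.12 kb downstream of it. At Prdm1 the 4 gained regions were inside the gene, and the lost one, of 6.46-fold, lay 0.995 kb from an end of a protein-coding gene. All 3 lost regions overlapped the unstimulated Treg list. They were weak, and with the common cut-off at a −log10 p of 38.1 none of the genes of their lists had a lost region.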
